A study of Homo sapiens with 60 samples.

Results

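A549 cells, an epithelial line from a human lung adenocarcinoma, were exposed for 24 h to a hot water extract of Zizyphi Semen at 500 µg/mL and compared with cells given only the solvent. The comparison was taken by library name: 3 libraries of the high dose of the extract (Zizyphi 500) against 3 libraries of Vehicle, 6 of the 60 libraries of the series. Zizyphi Semen is the seed of the spiny jujube, a remedy of East Asian medicine used for sleeplessness, and holds saponins named jujubosides and the flavonoid spinosin. The labels give Vehicle as 0.1% DMSO, whereas the design text gives 2% DMSO, and the labels of the extract-treated cells name no DMSO level. Nothing in the labels says that replicates came from separate cultures. The p-values thus reflect the scatter between libraries of a group, pooled over the groups of all 60 libraries, and that scatter may be technical.

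The series holds 20 groups of 3 libraries, made from 6 herbal water extracts at 20, 100 and 500 µg/mL, wortmannin at 10 µM and Vehicle, all in A549 cells at 24 h. The 9 Zizyphi libraries and the 9 libraries of Longan Arillus (the fruit flesh of the longan tree) share the first part of the library name, 3, and Vehicle carries A1. Treatment and library set therefore cannot be told apart in a comparison with Vehicle. Zizyphi 500 was also compared with Zizyphi 20, the lowest dose of the same extract, and with Longan 500, another extract at the same dose, both inside set 3. Vehicle libraries held 24867402, 28402986 and 27736524 expected counts and Zizyphi 500 libraries 25425374, 24548555 and 25329442. The keratins KRT8, KRT18 and KRT7 stood at 1982 CPM (a level scaled to equal library depth) or more in all 6 libraries. The epithelial marker EPCAM stood at 3.66 to 4.85 CPM, and the alveolar markers SFTPB, SFTPC, SFTPD, NKX2-1 and SLC34A2 were at most 0.197 CPM. Other alveolar markers were higher, with LPCAT1 at 68.14 to 70.91 CPM, ABCA3 at 25.66 to 30.99 CPM and NAPSA at 0.5769 to 1.421 CPM. The fibroblast marker DCN and the blood markers CD3E, HBB and MS4A1 were listed at 0. The fibroblast marker COL3A1 stood at 4.542 to 6.159 CPM, and PDGFRA, PDGFRB and LUM were at most 0.7238 CPM. The blood markers CD68 and CD14 stood at 10.47 to 12.43 CPM and 1.874 to 2.535 CPM, and PTPRC was at most 0.04021 CPM.

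The ID proteins (inhibitors of DNA binding) are helix-loop-helix proteins without a DNA-binding region. They pair with E proteins and other basic helix-loop-helix factors and keep these from binding DNA, which holds cells in a less differentiated state. Their genes are direct targets of bone morphogenetic protein (BMP) signalling, in which ligands such as BMP4 activate receptors that phosphorylate SMAD proteins, and in lung epithelium BMP signalling takes part in branching and repair.

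The high dose of Zizyphi Semen was followed by many small changes and by a few larger ones, among them falls of the helix-loop-helix genes ID2, ID4 and ATOH8, which had the 3 smallest p-values. Of 17368 genes tested, 315 (1.81%) passed an adjusted p of 0.05 in edgeR's quasi-likelihood test with Benjamini-Hochberg adjustment. Of these, 156 rose (0.898%) and 159 fell (0.915%), and 303 were protein coding. The median size of a change among the 315 was 0.20 on the log2 scale. A change past 1.25-fold was seen in 55 of them, and past 1.5-fold in 20, of which 15 fell and 5 rose. The 5 rises, ZNF418, TMEM121, MEGF6, MTMR9LP and AL604028.1, had means of at most 3.46 CPM under the extract and were named after their values were seen. At an unadjusted p under 0.05, 2378 genes (13.7%) differed. The 3 Zizyphi 500 values did not overlap the 3 Vehicle values in 314 of the 315 genes, against 22.7% of all genes tested. RMDN3, named for this reason after its values were seen, was the exception, with 1 Zizyphi 500 library at 16.5 CPM below a Vehicle library at 16.8 CPM. The count fell without any 1 of the 6 libraries. It was 124, 181 and 136 genes without Zizyphi 500 replicate 1, 2 and 3, and 148, 130 and 175 without Vehicle replicate 1, 2 and 3. Mitochondrial ribosomal RNA took 3.00% to 3.06% of the counts in Vehicle and 2.57% to 2.87% in Zizyphi 500, without overlap. All 18 libraries of set 3 lay at 2.48% to 2.87%, so the gap lies between Vehicle and the whole set. The part of this RNA in the result was not tested. In bulk RNA, fewer cells of a kind and less RNA per cell cannot be told apart.

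**Figure D1:**
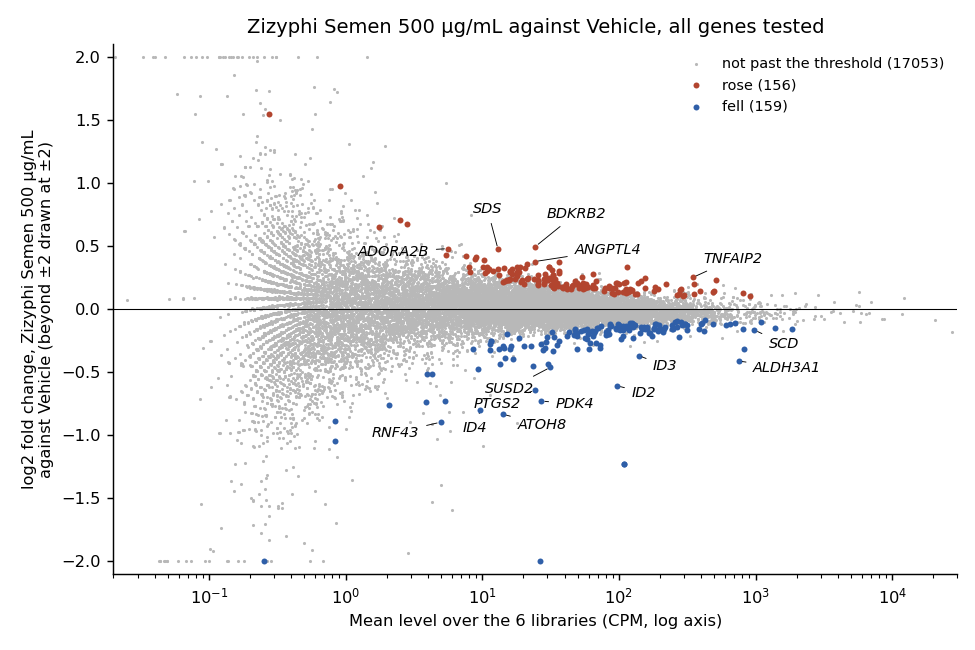
Each point is 1 gene, with its mean level over the 6 libraries (CPM, log axis) against its log2 fold change between Zizyphi 500 and Vehicle, where values beyond ±2 are drawn at ±2. The 156 genes that rose and the 159 that fell lie mostly within 0.5 of 0, and ID2, ID4, ATOH8, RNF43, PDK4 and PTGS2 lie below that band.

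Promoter sequence is given for 4 called genes of helix-loop-helix proteins, because they fell together. Each run is the 250 bases before the RefSeq transcription start (build GRCh38.p14), 5′ to 3′ on the gene's own strand, with GTCT and its reverse complement AGAC, the core letters bound by SMAD proteins, in capitals. The windows are chr2:8681806-8682055 (plus strand) for ID2, chr1:23559502-23559751 (minus strand) for ID3, chr6:19837120-19837369 (plus strand) for ID4 and chr2:85753741-85753990 (plus strand) for ATOH8.
ID2: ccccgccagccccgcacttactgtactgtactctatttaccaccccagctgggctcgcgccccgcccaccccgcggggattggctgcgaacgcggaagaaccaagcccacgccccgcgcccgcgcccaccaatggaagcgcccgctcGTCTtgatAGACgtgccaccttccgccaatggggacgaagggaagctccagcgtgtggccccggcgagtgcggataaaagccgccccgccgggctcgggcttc
ID3: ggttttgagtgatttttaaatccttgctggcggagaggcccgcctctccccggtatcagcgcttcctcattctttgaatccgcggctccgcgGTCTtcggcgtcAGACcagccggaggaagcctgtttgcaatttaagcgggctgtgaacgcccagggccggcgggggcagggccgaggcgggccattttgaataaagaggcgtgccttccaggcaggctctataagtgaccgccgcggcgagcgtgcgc
ID4: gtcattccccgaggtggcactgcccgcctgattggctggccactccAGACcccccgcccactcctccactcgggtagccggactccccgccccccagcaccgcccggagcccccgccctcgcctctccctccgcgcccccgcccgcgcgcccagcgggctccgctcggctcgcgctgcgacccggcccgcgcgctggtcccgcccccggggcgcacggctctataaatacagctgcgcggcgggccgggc
ATOH8: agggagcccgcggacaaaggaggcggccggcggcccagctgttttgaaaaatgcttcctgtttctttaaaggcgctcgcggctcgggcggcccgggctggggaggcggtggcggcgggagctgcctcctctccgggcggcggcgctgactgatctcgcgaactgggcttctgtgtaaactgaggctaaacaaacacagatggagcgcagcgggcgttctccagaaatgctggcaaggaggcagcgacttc
GTCT on either strand was found 2 times for ID2, 2 times for ID3, 1 time for ID4 and 0 times for ATOH8. It was found in 77.5% of 35116 promoter windows of this length; the match is a description and not a shown site. The GC-rich letters GGCGCC, another SMAD motif, were found in none of the 4 windows, in 16.4% of all windows and in 24% of the 17061 windows of tested genes. The window of BAMBI, another gene of this list that fell, held GGCGCC 3 times and GTCT 4 times.

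ID2 (chr2:8678845-8684453, GRCh38, plus strand) stood at 121, 115 and 115 CPM in the Vehicle libraries and at 75.4, 81.0 and 74.0 CPM in the Zizyphi 500 libraries. Every treated library was below every Vehicle library. The log2 fold change was −0.61 ± 0.060 (SE), with an adjusted p of 2.52e-09 in edgeR. The SE comes from the fit of all 60 libraries, with n = 3 a group. ID4 (chr6:19837386-19840684, plus strand), a family member at a lower level, went from 10.9, 13.3 and 12.7 CPM to 7.97, 6.41 and 6.84 CPM. Its log2 fold change of −0.80 ± 0.089 left 57.6% of the Vehicle mean (adjusted p 1.28e-08). ID3 (chr1:23557918-23559794, minus strand) went from 154, 163 and 155 CPM to 120.3, 126 and 119 CPM, a log2 fold change of −0.37 ± 0.056 (adjusted p 6.66e-05). The groups of ID3 did not overlap either. ID1 (chr20:31605283-31606515, plus strand) stood at 168, 171 and 163 CPM in Vehicle and at 144, 144 and 133 CPM in Zizyphi 500. Its groups stood apart, but the log2 fold change of −0.26 ± 0.083 did not pass (adjusted p 0.108).

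ATOH8 (chr2:85751344-85788066, plus strand) is a basic helix-loop-helix transcription factor that BMP signalling also induces. It stood at 16.4, 17.9 and 20.1 CPM in Vehicle and at 10.02, 9.54 and 11.01 CPM in Zizyphi 500, with no overlap. The log2 fold change of −0.83 ± 0.082 had the smallest adjusted p of all genes tested, 4.65e-10. BAMBI (chr10:28677342-28682939, plus strand), a decoy receptor that dampens BMP and TGF-beta signals, went from 21.2, 23.0 and 22.9 CPM to 17.3, 19.9 and 17.6 CPM. Its fall of −0.29 ± 0.070 (adjusted p 0.0136) lost the call without Zizyphi 500 replicate 1 or 3 or Vehicle replicate 2 or 3, at log2 values from −0.36 to −0.26 over the 6 fits. ID2, ID3, ID4 and ATOH8 kept the call without any 1 library.

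The list of ID genes and BMP signal held 14 measured genes, of which 5 fell (ATOH8, ID4, ID2, ID3 and BAMBI) and 0 rose, beside 1.81% called among all genes. The median log2 fold change over the 14 genes was −0.33, and 0.002 over all genes. Among the ligands, BMP4 had a log2 fold change of −0.42 ± 0.12 (adjusted p 0.060), and BMP2, below 1 CPM, had −0.59 ± 0.35 (adjusted p 0.505). Among the signal carriers and inhibitors inside the cell, SMAD6, which blocks BMP receptors, had −0.16 ± 0.050 (adjusted p 0.079), SMAD9 −0.44 ± 0.19 and SMAD7 0.02 ± 0.063. The secreted modulators BMPER, GREM1 and NOG had values of 0.11, 0.05 and −0.04. Thus 3 of the 4 ID genes, ATOH8 and BAMBI passed, and neither ligand did.

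The dose series allowed a comparison inside 1 library set and without Vehicle. ID4 had means of 13.3, 11.3 and 7.07 CPM at 20, 100 and 500 µg/mL, and the difference between 500 and 20 µg/mL was −0.91 ± 0.089 (adjusted p 4.2e-10). For ATOH8 the means were 18.04, 15.5 and 10.2 CPM and the difference was −0.82 ± 0.083 (adjusted p 5.25e-10). ID2 had means of 112.8, 101.9 and 76.8 CPM (difference −0.55 ± 0.061, adjusted p 3.39e-08). The 3 Zizyphi 500 libraries of each of these genes lay below all 6 libraries of the lower doses. ID3 differed by −0.42 ± 0.056 (adjusted p 4.52e-06) and ID1 by −0.40 ± 0.083 (adjusted p 0.0186), whereas BAMBI did not pass (−0.11 ± 0.072, adjusted p 0.805). At the lower doses fewer genes passed against the same Vehicle libraries. These were 63 (0.363%) at 20 µg/mL, 31 higher (0.178%) and 32 lower (0.184%), and 104 (0.599%) at 100 µg/mL, 47 higher (0.271%) and 57 lower (0.328%). At 20 µg/mL none of ID1, ID2, ID3, ID4 and ATOH8 passed against Vehicle, and at 100 µg/mL none passed either. BAMBI passed against Vehicle at 100 µg/mL (−0.29, adjusted p 0.0298).

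Across the 20 groups of the series, Zizyphi 500 had the lowest mean of ID1, ID2, ID3, ID4 and ATOH8, and ranked 4 from the lowest for BAMBI. The highest group mean of ID2 was 131.8 CPM and of ID4 14.6 CPM, both under Schisandrae 100. Longan 500 was also low, with 96.3, 92.9 and 84.0 CPM of ID2, 8.82, 9.68 and 9.59 CPM of ID4 and 12.3, 13.3 and 12.8 CPM of ATOH8. Against the same Vehicle, Longan 500 had 18 genes past the threshold (0.104%), 3 higher (0.0173%) and 15 lower (0.0864%). Longan 500 fell below the same Vehicle libraries in ID2 (−0.36 ± 0.060, adjusted p 0.00239), ID3 (−0.25, adjusted p 0.039), ID4 (−0.40, adjusted p 0.0274) and ATOH8 (−0.51, adjusted p 0.00059). Between Zizyphi 500 and Longan 500 the difference passed for ID4 (−0.40 ± 0.094, adjusted p 0.0426). That call was lost without Zizyphi 500 replicate 2 or 3 or any 1 of the 3 Longan 500 replicates (−0.49 to −0.33 over the 6 fits). The difference did not pass for ID2 (−0.25 ± 0.062, adjusted p 0.0782), ATOH8 (−0.32 ± 0.088, adjusted p 0.143), ID3 (−0.11 ± 0.057, adjusted p 0.776) or ID1 (−0.15 ± 0.084, adjusted p 0.832). These p-values do not show that the 2 extracts act alike on the other genes.

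**Figure D2:**
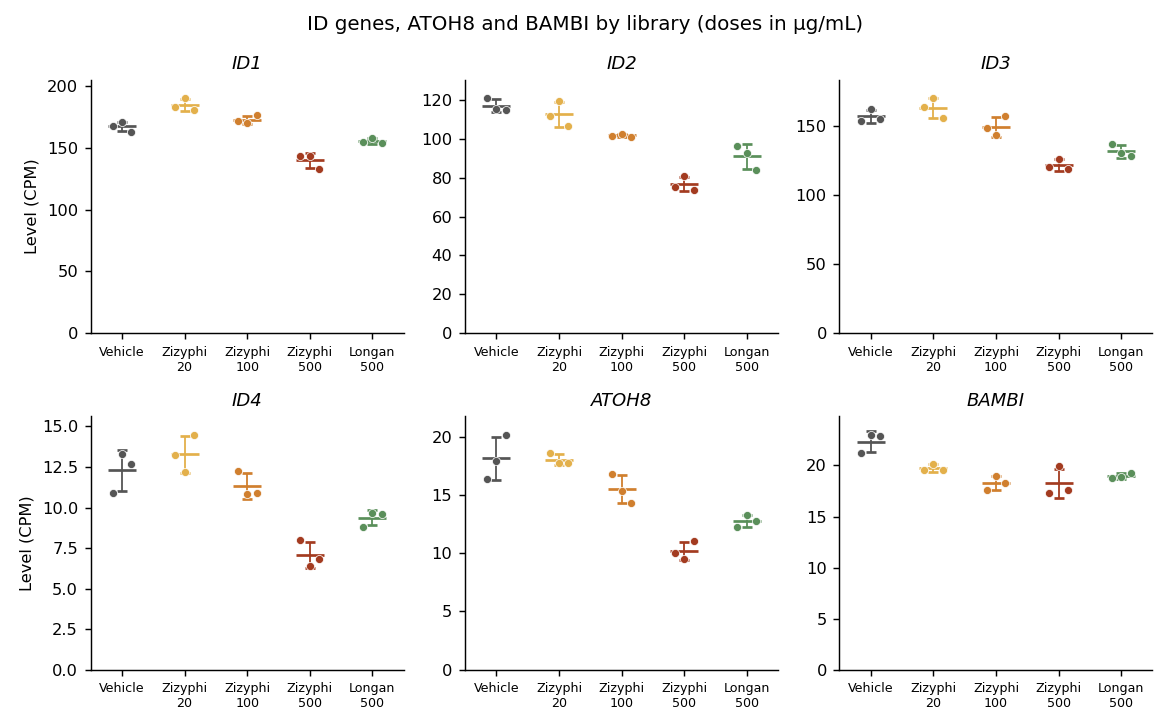
Level in CPM of ID1, ID2, ID3, ID4, ATOH8 and BAMBI in each library of Vehicle, Zizyphi Semen at 20, 100 and 500 µg/mL and Longan at 500 µg/mL; points are libraries, and bars are the mean ± SD of 3. In ID2, ID3, ID4 and ATOH8 the 3 libraries at 500 µg/mL of Zizyphi Semen lie below all others drawn, and the Longan libraries lie next lowest.

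Other large falls were in single genes of Wnt feedback, fuel choice, prostaglandin synthesis and aldehyde removal. RNF43, a ubiquitin ligase that takes Wnt receptors off the cell surface, stood at 7.07, 6.82 and 5.46 CPM in Vehicle and at 3.73, 3.00 and 3.63 CPM in Zizyphi 500. Its log2 fold change was −0.90 ± 0.14 (adjusted p 4.94e-05), leaving 53.5% of the Vehicle mean. PDK4, a kinase that shuts off pyruvate dehydrogenase and so spares glucose, went from 33.7, 33.3 and 34.2 CPM to 20.1, 22.4 and 18.7 CPM (−0.73 ± 0.11, adjusted p 0.000134). No library of either gene overlapped the other group. PTGS2, the inducible cyclooxygenase, went from 30.8, 28.3 and 30.1 CPM to 17.7, 19.4 and 20.0 CPM (−0.64 ± 0.13, adjusted p 0.00287). ALDH3A1, an aldehyde dehydrogenase at a high level in A549 cells, went from 887, 843 and 851 CPM to 628, 666 and 644 CPM (−0.41 ± 0.072, adjusted p 0.000602). SUSD2, a membrane protein with a sushi domain, went from 38.0, 35.5 and 36.1 CPM to 27.1, 26.9 and 25.5 CPM (−0.46 ± 0.073, adjusted p 8.86e-05). In all 5 genes every treated library was below every Vehicle library, and the call held without any 1 of the 6 libraries.

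Inside set 3, RNF43, PDK4, ALDH3A1 and SUSD2 were also lower than in Longan 500, by −0.70 ± 0.14 (adjusted p 0.00722), −0.57 ± 0.12 (adjusted p 0.0127), −0.32 ± 0.072 (adjusted p 0.0312) and −0.40 ± 0.074 (adjusted p 0.00298). The SUSD2 call was lost without Longan 500 replicate 2. Whether the calls of RNF43, PDK4 and ALDH3A1 against Longan 500 held without 1 library was not examined. PTGS2 was not past the threshold against Longan 500 (−0.48 ± 0.13, adjusted p 0.173). Against Zizyphi 20, SUSD2 passed (−0.42 ± 0.074, adjusted p 0.00109). RNF43, PDK4, PTGS2 and ALDH3A1 did not, at −0.52, −0.42, −0.43 and −0.19. The middle dose lay between the outer doses in these genes: the means at 20, 100 and 500 µg/mL were 27.3, 24.4 and 20.4 CPM for PDK4 and 735.5, 670.0 and 646 CPM for ALDH3A1. At 100 µg/mL, RNF43, PDK4 and ALDH3A1 passed against Vehicle with −0.53, −0.47 and −0.36.

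Among genes with a mean of at least 3 CPM over the 6 libraries, the largest rises included 2 receptors, a metabolic enzyme, a secreted protein and an adaptor, and all were smaller than 1.5-fold. BDKRB2, the bradykinin B2 receptor, stood at 19.8, 20.3 and 20.8 CPM in Vehicle and at 28.99, 29.5 and 27.4 CPM in Zizyphi 500. The log2 fold change was 0.50 ± 0.067, a 1.41-fold rise with an adjusted p of 1.86e-06. ADORA2B, the adenosine A2B receptor, went from 4.33, 5.11 and 4.62 CPM to 6.40, 6.87 and 6.37 CPM (0.48 ± 0.11, adjusted p 0.0134). Both receptors had groups without overlap. The ADORA2B call was lost without Zizyphi 500 replicate 2, Vehicle replicate 1 or Vehicle replicate 3 (0.43 to 0.55 over the 6 fits). SDS, serine dehydratase, went from 10.7, 11.46 and 10.6 CPM to 15.0, 15.8 and 14.7 CPM (0.47 ± 0.080, adjusted p 0.00018). ANGPTL4, a secreted inhibitor of lipoprotein lipase, went from 21.8, 20.96 and 20.5 CPM to 26.8, 26.7 and 28.4 CPM (0.38 ± 0.062, adjusted p 0.000144). AFAP1L2, an adaptor of Src and PI3-kinase signalling, went from 32.8, 31.6 and 31.6 CPM to 42.0, 41.4 and 40.8 CPM (0.37 ± 0.047, adjusted p 4.32e-07). PTK7, a receptor-like pseudokinase of planar cell polarity, went from 7.32, 7.57 and 7.92 CPM to 9.66, 10.1 and 10.4 CPM (0.40 ± 0.076, adjusted p 0.0012). These 4 genes also had groups without overlap and kept the call without any 1 library.

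The other rises among the 15 largest were those of DOC2B, EML5, AMDHD2, NME3, ADAMTS10, ADCY7, NUDT18, PAPLN and GALNT18, with log2 fold changes from 0.33 to 0.43. AMDHD2, NME3 and EML5 lost the call without any 1 of the 6 libraries, and the other 6 without at least 2 of them. Against Longan 500, BDKRB2 (0.33 ± 0.066, adjusted p 0.00717), SDS (0.36, adjusted p 0.0201), ANGPTL4 (0.26, adjusted p 0.046) and AFAP1L2 (0.24, adjusted p 0.00442) were higher. Whether these calls held without 1 library was not examined. ADORA2B (0.25, adjusted p 0.694) and PTK7 (0.13, adjusted p 0.853) did not pass. None of these 6 genes passed against Zizyphi 20. The middle dose, 100 µg/mL, already passed against Vehicle in SDS, PTK7, ANGPTL4 and AFAP1L2, with 0.40, 0.34, 0.33 and 0.22. It did not pass in BDKRB2 (0.18) or ADORA2B (0.26). The lowest dose already stood above Vehicle in BDKRB2, with 26.5, 24.0 and 23.1 CPM (adjusted p 0.0533), and in ANGPTL4, with 25.8, 24.9 and 24.3 CPM (adjusted p 0.0582).

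**Figure D3:**
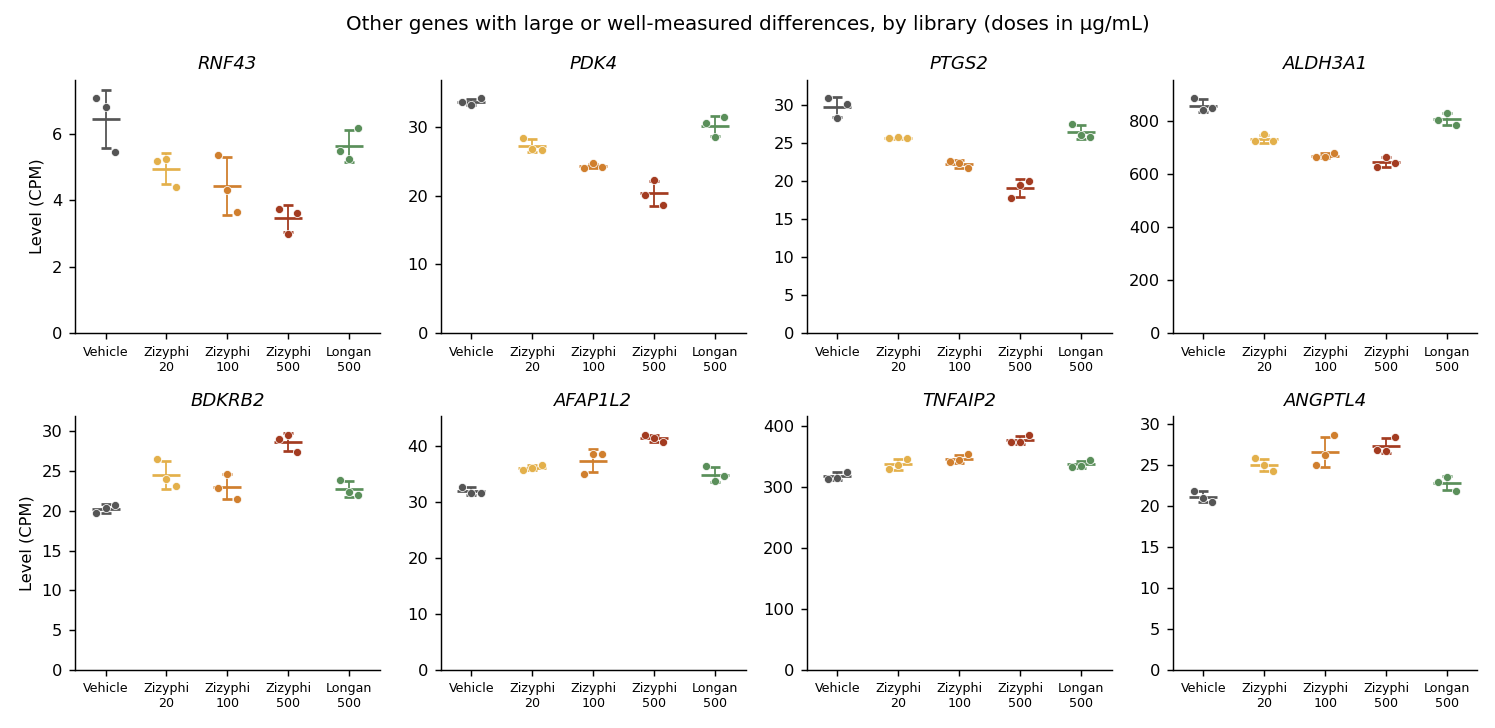
Level in CPM of 4 genes that fell and 4 that rose, by library, in Vehicle, Zizyphi Semen at 20, 100 and 500 µg/mL and Longan at 500 µg/mL; points are libraries, and bars are the mean ± SD of 3. PDK4, PTGS2 and ALDH3A1 step down with dose, AFAP1L2 and TNFAIP2 step up, and the Longan libraries stay nearer to Vehicle in PDK4 and ALDH3A1.

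Against Zizyphi 20, 33 genes passed (0.19%), of which 13 rose (0.0749%) and 20 fell (0.115%), and against Longan 500, 37 passed (0.213%), of which 20 rose (0.115%) and 17 fell (0.0979%). Both comparisons use the same 3 Zizyphi 500 libraries as the comparison with Vehicle. Without 1 library these counts were 14 to 30 for Zizyphi 20, with 20, 16 and 19 without Zizyphi 500 replicate 1, 2 and 3 and 14 and 18 without Zizyphi 20 replicate 1 and 2. They were 15 to 25 for Longan 500, with 21 and 20 without Zizyphi 500 replicate 1 and 2 and 22, 15 and 22 without Longan 500 replicate 1, 2 and 3. In all 3 comparisons and in 1 direction, 15 genes passed. The 13 described here are ID4, SUSD2, CPS1, CCND3, SCD, SREBF1, ACSL3 and GCLC, which fell, and PAQR5, CYBRD1, EFEMP1, TNFAIP2 and HAS3, which rose. Of the 15, CCND3 was the 1 gene that kept its call in each of the 18 fits that left out 1 library.

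CCND3, cyclin D3, which drives cells out of the first gap phase, stood at 185, 192 and 187 CPM in Vehicle and at 166, 162 and 159 CPM in Zizyphi 500 (−0.22 ± 0.034, adjusted p 6.43e-05). It differed by −0.19 from Zizyphi 20 (adjusted p 0.000766) and by −0.26 from Longan 500. CPS1, which makes carbamoyl phosphate for the urea cycle, went from 60.5, 62.6 and 65.0 CPM to 54.1, 53.8 and 51.9 CPM (−0.24 ± 0.049, adjusted p 0.00391). In both genes the treated libraries lay below all Vehicle libraries. CPS1 differed by −0.21 from Zizyphi 20, a call lost without any 1 of the 6 libraries.

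Among the rises in all 3 comparisons, TNFAIP2, a gene induced by tumour necrosis factor, stood at 313, 315 and 325 CPM in Vehicle and at 374, 373 and 385 CPM in Zizyphi 500. Its log2 fold change was 0.25 ± 0.030 (adjusted p 6.08e-08), and it stood 0.16 above Zizyphi 20 (adjusted p 0.00153) and 0.16 above Longan 500 (adjusted p 0.00172). The call against Zizyphi 20 was lost without Zizyphi 20 replicate 1. HAS3, a hyaluronan synthase, went from 30.9, 29.3 and 30.0 CPM to 36.7, 35.8 and 36.2 CPM (0.27 ± 0.050, adjusted p 0.000784), and its call against Zizyphi 20 held only without Zizyphi 20 replicate 3. The groups of both genes stood apart. CYBRD1, an iron reductase of the cell surface, rose by 0.17 ± 0.034, EFEMP1, an extracellular fibulin, by 0.19 ± 0.047 and PAQR5, a membrane progestin receptor, by 0.16. CYBRD1 kept its call against Vehicle in all 6 fits, but in 1 of 6 against Zizyphi 20 and 2 of 6 against Longan 500. The EFEMP1 call against Vehicle was lost without Zizyphi 500 replicate 2 or 3 or Vehicle replicate 1 or 3 (0.16 to 0.23), and the PAQR5 call without Zizyphi 500 replicate 1 or Vehicle replicate 2 (0.12 to 0.18).

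**Figure D4:**
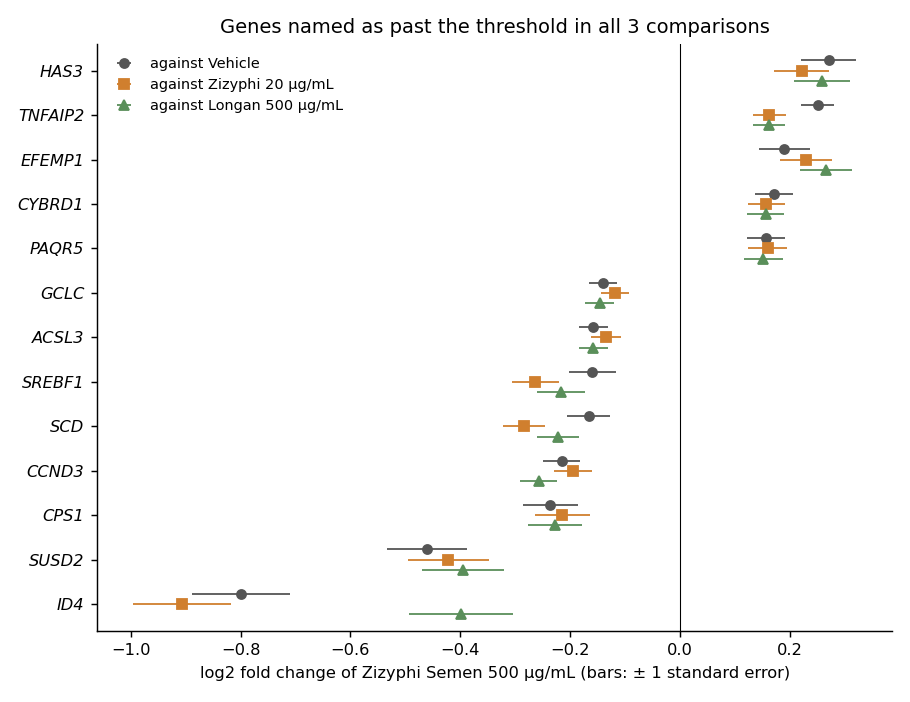
Log2 fold change of Zizyphi 500 against Vehicle, against Zizyphi 20 and against Longan 500 for 13 of the 15 genes past the threshold in all 3; bars are ± 1 SE, and the 3 comparisons share the Zizyphi 500 libraries. ID4 has the largest falls (−0.80, −0.91 and −0.40), and the 5 rises drawn lie between 0.15 and 0.27.

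In the list of fatty acid synthesis and desaturation, 3 of 15 measured genes fell (SCD, SREBF1 and ACSL3) and 0 rose, 20.0% against 1.81% of all genes, with a median of −0.04. SCD, the desaturase that makes oleate, stood at 1025, 1081 and 1000 CPM in Vehicle and at 937, 924 and 909 CPM in Zizyphi 500 (−0.17 ± 0.039, adjusted p 0.0123). SREBF1, the transcription factor of this pathway, went from 187, 197 and 189 CPM to 173, 168 and 173 CPM (−0.16 ± 0.043, adjusted p 0.0354). The groups did not overlap in either gene. Their calls against Vehicle were lost without Zizyphi 500 replicate 3 or Vehicle replicate 2 for SCD (−0.19 to −0.13) and without any 1 of the 6 libraries for SREBF1 (−0.18 to −0.14). ACSL3, which activates fatty acids, fell by 0.16 ± 0.027 on the log2 scale (adjusted p 0.000167) and kept the call without any 1 library. Against Zizyphi 20 the differences were −0.28 ± 0.039 for SCD (adjusted p 4.52e-06) and −0.26 ± 0.043 for SREBF1 (adjusted p 0.000273). At 20 µg/mL both genes had means above Vehicle, 1124 against 1035 CPM for SCD and 205 against 191 CPM for SREBF1, and neither of these differences passed (adjusted p 0.165 and 0.313). In the list of cholesterol synthesis and uptake, 1 of 25 genes rose (MSMO1, 0.20 ± 0.054, adjusted p 0.0317) and 0 fell, 4.0% against 1.81%. The MSMO1 call was lost without Zizyphi 500 replicate 1 or 2 or any 1 Vehicle library (0.18 to 0.25). HMGCS1, a sterol-controlled enzyme of the pathway, had 0.04 ± 0.038 (adjusted p 0.723).

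Selenoprotein genes followed the ID and BMP list in the share of members past the threshold. Selenoproteins carry selenocysteine and include glutathione peroxidases, thioredoxin reductases and the deiodinases of thyroid hormone. Of 15 measured genes, 4 fell and 1 rose (33.3%, against 1.81% of all genes), with a median log2 fold change of −0.12. SELENOW stood at 57.2, 54.4 and 51.5 CPM in Vehicle and at 42.4, 46.3 and 42.3 CPM in Zizyphi 500 (−0.31 ± 0.061, adjusted p 0.00188). GPX1, a glutathione peroxidase, went from 79.9, 81.4 and 80.5 CPM to 66.0, 67.4 and 62.3 CPM (−0.31 ± 0.071, adjusted p 0.0136). Neither gene had overlapping groups, and the GPX1 call was lost without Zizyphi 500 replicate 1 or 3 or Vehicle replicate 2 (−0.33 to −0.27). SELENOT fell by 0.21 ± 0.039 on the log2 scale, and DIO2, the activating deiodinase, by 0.20 ± 0.039. SEPHS2, which makes the selenium donor, rose by 0.20 ± 0.049 (adjusted p 0.0184). TXNRD1, a thioredoxin reductase, had −0.12 ± 0.034 against Vehicle (adjusted p 0.0502) and was lower than in Zizyphi 20 (−0.16 ± 0.034, adjusted p 0.0177), and GPX4 had −0.07 ± 0.055. None of the 4 falls passed against Zizyphi 20 or Longan 500, where SELENOW had −0.15 and −0.16 and GPX1 −0.15 and −0.18. The middle dose, 100 µg/mL, already passed below Vehicle in SELENOW, GPX1 and SELENOT, with −0.29, −0.31 and −0.16. It did not pass in DIO2 (−0.04).

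Targets of NRF2, the factor that answers oxidative stress, had small falls. Of 25 measured genes, 3 fell (GCLC, OSGIN1 and GSR) and 0 rose, 12% against 1.81% of all genes, with a median of −0.03. In 13 of the 25 every treated library lay below every Vehicle library, a larger share than the 11.1% of all genes. In 3 every treated library lay above, beside 11.6% of all genes. Some other lists leaned the same way. Groups stood apart and lower in 9 of 22 mitosis genes, 9 of 26 of DNA replication and 9 of 25 proteasome subunits. They stood apart and higher in 1, 1 and 3. Other lists leaned upward. Groups stood apart and higher in 12 of 25 genes of cholesterol synthesis and uptake, 11 of 25 ATF4 targets and 8 of 16 NF-kB and cytokine genes. In these lists they stood apart and lower in 0, 3 and 1. GCLC, the rate-limiting enzyme of glutathione synthesis, went from 277, 280.2 and 279 CPM to 252, 251 and 256 CPM (−0.14 ± 0.026, adjusted p 0.000784). GCLC kept this call in all 6 fits that left out 1 library, but lost its call against Zizyphi 20 in each of 6. OSGIN1 fell by 0.24 ± 0.048 on the log2 scale (adjusted p 0.00287), a call lost without Zizyphi 500 replicate 1, at which the value was −0.20. The GSR call, at −0.11 ± 0.027, was lost in 5 of the 6 fits. HMOX1 and NQO1 had 0.07 ± 0.044 and −0.06 ± 0.040. Of 7 measured targets of the dioxin receptor AHR, ALDH3A1 fell (14.3%) and CYP1A1, near 1 CPM, had −0.13 ± 0.22. Of 11 targets of the PPAR receptors, 1 rose (ANGPTL4) and 1 fell (PDK4), 18.2%. Both shares stand beside 1.81% of all genes and rest on 1 or 2 genes.

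In the list of NF-kB and cytokine genes, 3 of 16 measured genes rose and 0 fell, 18.8% against 1.81% of all genes, with a median of 0.20. These were TNFAIP2, BIRC3, which inhibits cell death, and NFKB2, a subunit of the non-canonical pathway. BIRC3 stood at 30.5, 25.9 and 31.1 CPM in Vehicle and at 34.4, 39.3 and 34.5 CPM in Zizyphi 500 (0.31 ± 0.062, adjusted p 0.00214). NFKB2 went from 47.9, 46.5 and 51.8 CPM to 58.1, 61.0 and 55.3 CPM (0.25 ± 0.055, adjusted p 0.00563). Groups did not overlap in either gene. Both calls were lost without Zizyphi 500 replicate 2 or Vehicle replicate 2, with 0.23 to 0.36 for BIRC3 and 0.22 to 0.30 for NFKB2. All 3 genes also passed against Zizyphi 20. Against Longan 500 TNFAIP2 passed, and BIRC3 (0.18 ± 0.062, adjusted p 0.444) and NFKB2 (0.21 ± 0.056, adjusted p 0.130) did not. The chemokines CXCL1, CXCL2, CXCL3, CXCL5, CXCL8 and CCL2 did not pass, with CXCL8 near 1 CPM at 0.53 ± 0.23, and NFKBIA had 0.02 ± 0.056. Among early and feedback genes of MAPK signalling, JUNB rose (0.28 ± 0.059, adjusted p 0.0058) and FOSL1 fell (−0.33 ± 0.076, adjusted p 0.0127), 2 of 24 measured (8.33%, against 1.81% of all genes). JUNB lost the call without Vehicle replicate 1 (0.23), and FOSL1 without Zizyphi 500 replicate 3 or Vehicle replicate 1 or 3 (−0.40 to −0.27). FOSL1 also passed below the same Vehicle libraries in Zizyphi 20 (−0.37, adjusted p 0.0185), Zizyphi 100 (−0.45, adjusted p 0.00426) and Longan 500 (−0.35, adjusted p 0.0359). Against Zizyphi 20 and Longan 500, neither FOSL1 (0.05 and 0.02) nor JUNB (0.13 and 0.19) passed.

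Of 41 gene lists, 29 held at least 1 gene past the threshold and 12 held none. The 12 lists covered heat shock, interferon-stimulated genes, metallothioneins, iron and ferritin, efflux transporters, amino acid transporters, proteasome subunits, mitochondrially encoded messenger RNAs, receptors of GABA, serotonin and histamine, oestrogen and androgen targets, replication-dependent histones, and markers of fibroblasts, endothelium and blood. They held 140 measured genes, and their medians ran from −0.08 to 0.07. In the receptor list 12 of 26 genes were measured, with the GABA receptor subunit GABRA5 at 152 and 152 CPM in Vehicle and Zizyphi 500. Levels in a lung cell line do not address the use of the seed for sleep. In the lists of DNA replication and mitosis, 1 of 26 genes fell (RRM2, −0.12) and 1 of 22 fell (PLK1, −0.18 ± 0.035, adjusted p 0.00205). These shares, 3.85% and 4.55%, rest on 1 gene each and are near the 1.81% of all genes. MKI67, a marker of cycling cells, had −0.10 ± 0.087, and CDKN1A, the inhibitor p21, −0.10 ± 0.044. The RRM2 call was lost without Zizyphi 500 replicate 1 or 2 or Vehicle replicate 2 (−0.13 to −0.10). In the ATF4 list, which holds genes of amino acid shortage, 3 of 25 rose (PCK2, PHGDH and DDIT4, 0.16 to 0.23), 12% against 1.81% of all genes, and ASNS and CHAC1 had 0.04 ± 0.049 and −0.26 ± 0.11. Those 3 calls were lost without Zizyphi 500 replicate 1 or Vehicle replicate 1 and without 1 or 2 other libraries each. None of these 3 genes passed against Zizyphi 20 or Longan 500, where PCK2 had 0.04 and 0.02.

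**Figure D5:**
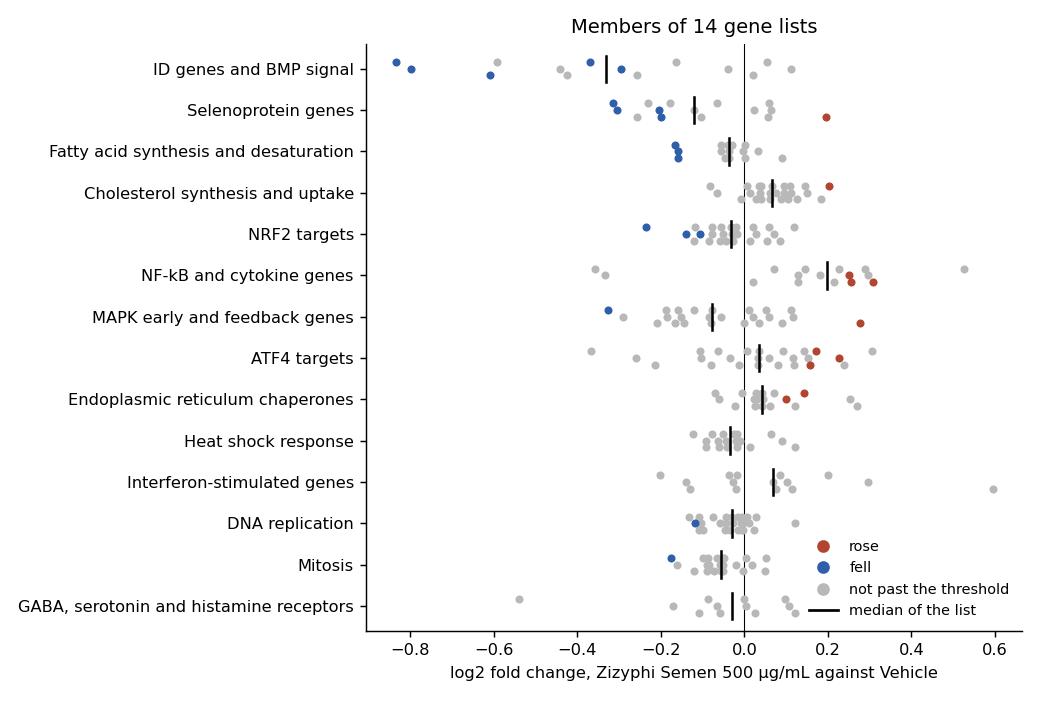
Log2 fold change between Zizyphi 500 and Vehicle of each measured member of 14 of the 41 gene lists; colours mark genes that rose, fell or did not pass, and black bars are list medians. The list of ID genes and BMP signal has the lowest median drawn, −0.33, and 5 genes that fell, while heat shock, interferon-stimulated genes and the receptors have none past the threshold.

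Some of the largest fold changes belonged to features that the counting could split or that had few counts. DLX3, a homeobox transcription factor named after its values were seen, stood at 0.445, 0.464 and 0.440 CPM in Vehicle and at 0.0393, 0.0411 and 0.0781 CPM in Zizyphi 500. It passed against Vehicle (adjusted p 0.00219) and Zizyphi 20 (adjusted p 0.0256), not against Longan 500 (adjusted p 0.405), and no fold is given at so few counts. HLF, a leucine zipper transcription factor, went from a mean of 1.13 to 0.546 CPM (−1.04 ± 0.25, adjusted p 0.0134), a call lost without Zizyphi 500 replicate 1 or 3 or Vehicle replicate 1 or 2 (−1.25 to −0.90). TUBA1B-AS1, an antisense RNA over the tubulin gene TUBA1B, stood at 73.8, 19.5 and 63.2 CPM in Vehicle and at 2.12, 0.493 and 0.234 CPM in Zizyphi 500 (log2 fold change −5.76 ± 1.5, adjusted p 0.0381). It was also low at the other doses, with at most 2.38 CPM in any Zizyphi 20, Zizyphi 100 or Longan 500 library, and had a mean of 8.39 CPM under wortmannin. The library kit keeps strand, but the strand setting of the counting is not given in the sources used here. Reads of TUBA1B may count in it. FP236383.2 and FP236383.3, copies with equal values, stood at 160, 140.1 and 156 CPM in Vehicle and at 68.5, 52.5 and 73.7 CPM in Zizyphi 500. Zizyphi 20 also stood below Vehicle for FP236383.2, with 69.4, 66.9 and 42.4 CPM. The pseudogenes RPS26P19, RAC1P2 and ZDHHC8BP also fell (−0.73, −0.48 and −0.73), and their values are uncertain because the counting could split reads between them and their parent genes. Each of the calls of TUBA1B-AS1, the FP236383 copies and the pseudogenes except that of ZDHHC8BP was lost in at least 4 of the 6 fits that left out 1 library, and that of ZDHHC8BP was lost without Zizyphi 500 replicate 1 or Vehicle replicate 1.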

How the data were processed

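RNA from A549 cells was sequenced as paired 100-base reads (labels' protocols). Per the submitters' processing notes, the tools were FastQC 0.11.9, Trim Galore 0.6.5, STAR 2.7.3a and RSEM 1.3.3 on GRCh38; the annotation release is not given in the sources used here. The authors deposited expected counts per gene, 10.7% of which were not whole, and these were rounded. Of 60675 gene identifiers, 41209 took symbols from a gene table and 15846 from GENCODE release 29, and 3620 had none. All 60 libraries entered 1 edgeR 4.0.16 fit (R 4.3.3; filterByExpr, TMM, quasi-likelihood, robust) with 1 mean per group, and p-values were adjusted over 17368 genes. Standard errors come from this fit, as the size of the log2 fold change over the square root of its F statistic. Levels are CPM on TMM-scaled depth. The levels of the keratins, EPCAM and the alveolar, fibroblast and blood markers are CPM on total counts, without TMM scaling. Genes were named by rule: the 15 largest rises and falls and the 10 smallest p-values among called genes of at least 3 CPM whose groups stood apart, up to 4 called genes per list, up to 5 rises and 5 falls called in all 3 comparisons, all members of the list with the largest called share, and 14 fixed genes. PAQR5, SEPHS2, TXNRD1, GPX4, NFKBIA, the chemokines other than CXCL8 and the GABA receptor subunit GABRA5 fall outside this rule and were named after their values were seen. Some genes that the rule names are not reported here. The gene lists and the comparison were chosen with earlier results of these data known. Lists are described by counts beside the share called among all genes, with no test of a list. On simulated counts for Zizyphi 500 against Vehicle (17201 genes), 78% of genes changed 1.25-fold and 100% of those changed 1.5-fold were recovered, with 7 false calls. The changes were placed only in genes with a mean of at least 3 CPM, so recovery at lower levels was not tested. The simulated spread was that of the fit, with no effect of library set or culture. The false calls of the real comparison may thus be more. Same-numbered libraries of Zizyphi 500 and Vehicle had correlations of 0.004, 0.196 and 0.008, and only that of replicate 2 was above the set threshold of 0.1. Zizyphi 500 replicate 1 had 0.215 with a Vehicle library of another number. Replicate numbers were not taken as pairs. Promoters are RefSeq's, GRCh38.p14; 12 of 14 genes of the ID and BMP list had one. Alternatives were no filter, RLE scaling, a replicate block, DESeq2 1.42.0, the 6 libraries alone, a dose slope and leaving out each library.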

Additional observations from a re-analysis of the deposited data

How the results depend on the processing

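The number of genes past the threshold between Zizyphi 500 and Vehicle depended on how the spread was estimated and on each library. It was 315 as reported, 317 with RLE scaling, 424 with no filter (212 of the 315 among them), 438 with DESeq2 and 992 with the 6 libraries alone, where 313 of the 315 remained. Choices made after seeing the data gave 922 with Vehicle and the 18 libraries of set 3, and 553 without the Polygalae 20 and Liriopis 20 groups, whose replicates correlated least. Leaving out 1 library gave 124 to 181. Against Zizyphi 20 the count of 33 became 148 with no filter, 62 with the 6 libraries alone, 52 with DESeq2, 58 as a dose slope over 9 libraries, 55 without the Polygalae 20 and Liriopis 20 groups, and 14 to 30 without 1 library. Against Longan 500 the count of 37 became 152 with no filter, 132 with the 6 libraries alone, 57 with DESeq2, and 15 to 25 without 1 library. The cause of these moves was not tested.

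With the replicate number as a block, 340, 37 and 42 genes passed in the 3 comparisons, and all 84 named genes past the threshold kept their call. Same-numbered libraries of Zizyphi 500 and Vehicle correlated at 0.004, 0.196 and 0.008. Zizyphi 500 replicate 1 correlated at 0.215 with a Vehicle library of another number, so the numbers were not taken as pairs. None of these 84 genes changed sign under the alternatives run; the direction of the other calls was not compared. Of the 84 named genes, 26 kept the call without any 1 library, 58 lost it at least 1 time and 13 lost it each time, and 15 lost it with no filter. Having 3 libraries a group and unstated cultures limit what small changes can be told from the spread between libraries.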
